A study of Gloeophyllum trabeum and Trametes versicolor with 18 samples.

Results

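In *Gloeophyllum trabeum*, a brown-rot wood-decay fungus, 446 transcripts had their highest level on dead fungal biomass rich in melanin. They were chosen from 11880 *G. trabeum* transcripts (3.75%) by their TPM, the share of a transcript among all transcripts of a library, corrected for length. The conditions on group means, each with 1 TPM added, and a further one on single libraries had to hold together. The mean on high-melanin necromass was at least 1.5 times that on low-melanin necromass, at least 1.5 times that on glucose and at least 6. The lowest high-melanin library also lay above the highest of the 6 other libraries. The height on high-melanin necromass is therefore how the members were picked, and it is described here without a test.

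The compared cultures were all strain ATCC 11539, grown for 7 days in Highley's medium, with 3 libraries for each carbon source. The carbon source was 0.45% (w/v) high-melanin fungal necromass, 0.45% low-melanin fungal necromass or 1% glucose, so glucose was supplied at another concentration than necromass. *Trametes versicolor*, the other fungus of the series with 15606 of its 27486 transcripts, is not used here. Whether libraries of the same carbon source were separate cultures is not stated in the labels, and the p-values given here therefore rest on the spread among libraries, which may be technical. They also do not name the fungus that supplied the necromass. RNA came from whole fungal biomass, in which fewer cells of a kind and less RNA per cell cannot be told apart.

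Brown-rot fungi open plant cell walls with small diffusible oxidants and with enzymes that cut polysaccharides, and leave much of the lignin behind in modified form. Fungal necromass is a different food, made of chitin, glucans, proteins and lipids. Melanin, a dark polyphenolic pigment bound to the cell walls of many fungi, is known to slow the decay of such material. The members carry locus tags only, with no product name or function paired to them in the files or in the reference gene table of assembly Glotr1_1, so no role can be given for any of them. That table gives symbols to 19 *G. trabeum* genes, among them the laccase genes Gtlcc1, Gtlcc2, Gtlcc3 and Gtlcc4, the polyketide synthase genes such as pks1 and the gene Gtfet3. None of the 19 was a member. Of the 17 with enough counts to test, 0 were called higher and 3 lower on high-melanin necromass relative to low-melanin necromass. Among all transcripts tested, 2.06% were called higher in that comparison and 6.71% in either direction, so 0 of 17 tells little about these genes. On low-melanin necromass 4 of the 17 were called higher and 10 lower than on glucose, beside 28.0% and 27.6% of all transcripts tested.

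Library sizes ranged from 18050313 to 25342327 estimated counts. Within groups, log2 CPM correlated at 0.967 to 0.992 between libraries across transcripts, and the lowest values joined high-melanin replicate 3 to replicates 1 and 2 (0.967 and 0.968). TPM values are shares, so a few abundant transcripts can press down all others in a library. The 10 most abundant transcripts took 16.4%, 15.6% and 25.6% of TPM in the high-melanin libraries, 41.0%, 20.7% and 18.1% in the low-melanin libraries and 14.2%, 10.8% and 10.9% in the glucose libraries. Low-melanin replicate 1 stood apart in this measure. Across all transcripts tested, the median log2 ratio of high-melanin to low-melanin means was 0.22 in TPM and 0.01 in CPM scaled by TMM, a method that evens out such differences in composition. For the members the same medians were 0.80 and 0.59.

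The choice of scale decides much of the membership. With TMM-scaled CPM in place of TPM the same conditions gave 214 transcripts, of which 194 are among the 446. These 194 are 43.5% of the members by TPM and 90.7% of the transcripts chosen by CPM. Leaving out each of the 9 libraries in turn, 249 members met the conditions every time, and 180 did both. Without low-melanin replicate 3 the conditions gave 734 transcripts, 441 of them among the 446. The conditions themselves differ in how much they removed. The limit against glucose alone was met by 2482 transcripts, that against low-melanin necromass by 1020, the level of 6 by 9407 and the gap between libraries by 1227. The limit against low-melanin necromass was the only one failed by 379 transcripts, against 44 for glucose, 19 for the level and 136 for the gap.

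Transcripts close to the limits show how fine the selection is. GLOTRDRAFT_39255 was inside at 1.502 times its low-melanin mean and GLOTRDRAFT_137956 outside at 1.4997 times. Against glucose, GLOTRDRAFT_110580 was inside at 1.507 times and GLOTRDRAFT_6723 outside at 1.495 times. GLOTRDRAFT_50916 passed the level at 6.04 and the gap by 0.0064 TPM, whereas GLOTRDRAFT_89680 failed the level at 5.96 and GLOTRDRAFT_37501 missed the gap by having its lowest high-melanin value at -0.0639 TPM relative to the highest other one.

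Members together summed to 134299, 119991 and 171714 TPM in the high-melanin libraries, 52637, 79296 and 78414 TPM in the low-melanin libraries and 15580, 17646 and 16933 TPM in the glucose libraries, which is a mean of 14.2%, 7.01% and 1.67% of all TPM. The median of the members' means, taken for each carbon source separately, was 47.5 TPM on high-melanin necromass, 25.4 TPM on low-melanin necromass and 12.5 TPM on glucose. Mean levels on high-melanin necromass spread from 5.04 to 19850 TPM, with 19 members at 1000 TPM or more, 143 at 100 TPM or more and 29 under 10 TPM. The peak was mostly modest. The high-melanin mean was at a median of 1.72 times the larger of the other means, 116 members reached 2 times, 18 reached 3 times and 6 reached 4 times. The larger of the other means was the low-melanin one for 401 members and the glucose one for 45. Members were also short, with a median length of 999 bases against 1236 bases for the 8961 other transcripts at the same minimum level. Reads shared with similar transcripts, seen as estimated counts that are not whole, occurred in 56 members (12.6%) and in 13.0% of the other transcripts.

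The most abundant 8 members carried 50.7%, 50.7% and 62.3% of the members' summed TPM in the high-melanin libraries. Of all TPM they were 6.81%, 6.08% and 10.7% in the high-melanin libraries, 2.63%, 4.58% and 4.19% in the low-melanin libraries and 0.277%, 0.273% and 0.253% in the glucose libraries. All 8 were called higher on low-melanin necromass than on glucose by edgeR's quasi-likelihood test with Benjamini-Hochberg adjustment over 10728 transcripts, the test behind each adjusted p that follows. The 8 therefore belong to transcripts abundant on both kinds of necromass, 7 of them are under 500 bases long, and 3 of them also met the conditions in TMM-scaled CPM.

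GLOTRDRAFT_127955 was the most abundant member, with 15055, 12955 and 31539 TPM on high-melanin necromass, 8734, 11295 and 11666 TPM on low-melanin necromass and 18.8, 54.2 and 58.4 TPM on glucose. Both necromass groups lay far above glucose, and the closest high-melanin and low-melanin libraries nearly met. Its log2 fold change in the count fit was 8.22 ± 0.67 (SE) for low-melanin necromass over glucose (adjusted p = 6.04e-06), beside 0.74 ± 0.49 for high-melanin over low-melanin necromass. Without high-melanin replicate 3 the difference between the necromass groups was 0.06. GLOTRDRAFT_127957, of the same length of 402 bases, had 3455, 3089 and 9423 TPM on high-melanin necromass, 1536, 2693 and 2710.0 TPM on low-melanin necromass and 6.49, 13.1 and 18.4 TPM on glucose. Again replicate 3 was the high one, and the log2 fold change of 1.07 ± 0.51 over low-melanin necromass was 0.17 without it. Over glucose, low-melanin necromass was higher by 7.81 ± 0.70 on the log2 scale (adjusted p = 1.06e-05). Both transcripts share reads with similar ones, so their levels are uncertain. GLOTRDRAFT_127958, also 402 bases long and next to GLOTRDRAFT_127957 in the gene table, had 3196, 3345 and 5099 TPM on high-melanin necromass, 563, 2392 and 1931 TPM on low-melanin necromass and 21.6, 32.4 and 28.9 TPM on glucose. All low-melanin libraries lay above all glucose libraries, and low-melanin replicate 1 was the lowest library on necromass.

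GLOTRDRAFT_138715 reached 14483, 10899 and 12477 TPM on high-melanin necromass, 6443, 7917 and 7363 TPM on low-melanin necromass and 20.4, 57.2 and 62.3 TPM on glucose. The libraries were close together within each necromass group, glucose replicate 1 lay under the other glucose libraries, and low-melanin necromass over glucose, at 7.60 ± 0.49 (adjusted p = 1.15e-06), was much larger than the further 0.55 ± 0.36 on high-melanin necromass. GLOTRDRAFT_126546 had 9836, 7532 and 14648 TPM on high-melanin necromass, 1515, 4100.3 and 3072 TPM on low-melanin necromass and 39.6, 46.6 and 62.9 TPM on glucose. Of the 8 it stood highest over low-melanin necromass, at 1.69 ± 0.39 on the log2 scale. GLOTRDRAFT_63180, the longest of the 8 at 1258 bases, had 4851, 5331 and 6628 TPM on high-melanin necromass, 1516, 2867 and 3744 TPM on low-melanin necromass and 5.93, 17.9 and 19.2 TPM on glucose. Its low-melanin values varied more between libraries than its high-melanin ones, with replicate 1 lowest.

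The remaining pair of the 8 was already abundant on glucose. GLOTRDRAFT_127937 had 11447, 11724 and 17539 TPM on high-melanin necromass, 2511, 9708 and 6768 TPM on low-melanin necromass and 917, 965 and 733 TPM on glucose. GLOTRDRAFT_100463 had 5742, 5927 and 9565 TPM on high-melanin necromass, 3444, 4872 and 4684 TPM on low-melanin necromass and 1739.7, 1545 and 1544 TPM on glucose. All low-melanin libraries lay above all glucose libraries for both transcripts. Low-melanin necromass exceeded glucose by 3.14 ± 0.42 (adjusted p = 0.000161) for GLOTRDRAFT_127937 and by 1.77 ± 0.28 (adjusted p = 0.000472) for GLOTRDRAFT_100463 on the log2 scale. High-melanin over low-melanin necromass was 0.52 ± 0.27 for GLOTRDRAFT_100463 and 0.08 without high-melanin replicate 3.

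**Figure D1:**
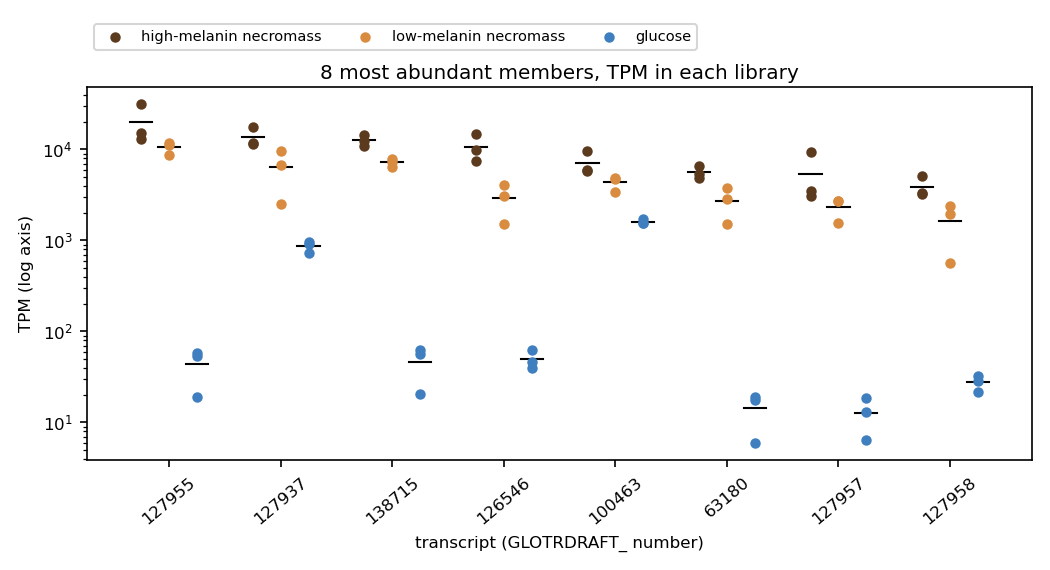
TPM (log axis) of the 8 most abundant members in each library, with points for single libraries and short lines for group means, from high-melanin necromass on the left to glucose on the right of each transcript. For 6 of the 8 the glucose libraries sit under 100 TPM, while all necromass libraries sit above 500 TPM.

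The 6 members that stood highest over the larger of the other means, at 4 times or more, were mostly less abundant, and all 6 met the conditions on both scales. GLOTRDRAFT_131887, at 10.3 times its low-melanin mean, had 378, 267 and 87.1 TPM on high-melanin necromass, 11.6, 22.1 and 34.8 TPM on low-melanin necromass and 1.24, 1.56 and 3.65 TPM on glucose. High-melanin replicate 3 was the low one here. All low-melanin libraries lay above all glucose libraries, and the high-melanin ones lay above both by the choice of members. GLOTRDRAFT_107452 had 789.7, 934 and 1949.5 TPM on high-melanin necromass, 44.1, 271 and 258 TPM on low-melanin necromass and 2.77, 3.63 and 3.97 TPM on glucose. Replicate 3 was the high one, and low-melanin replicate 1 was the lowest of the necromass libraries. Its log2 fold change of high-melanin over low-melanin necromass was 2.61 ± 0.60, and 1.93 without high-melanin replicate 3. GLOTRDRAFT_140299 had 1354, 2124 and 597 TPM on high-melanin necromass, 58.1, 273 and 436 TPM on low-melanin necromass and 40.1, 37.7 and 48.5 TPM on glucose. Its lowest high-melanin library and its highest low-melanin library were much closer than the group means, which were 5.29 times apart.

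GLOTRDRAFT_138821 had 101, 238 and 260.1 TPM on high-melanin necromass, 14.9, 59.4 and 58.5 TPM on low-melanin necromass and 5.35, 8.92 and 6.42 TPM on glucose. GLOTRDRAFT_37518 had 48.1, 31.2 and 34.3 TPM on high-melanin necromass, 7.86, 8.72 and 8.89 TPM on low-melanin necromass and 2.42, 2.69 and 2.49 TPM on glucose. The second was the steadiest of the 6, a stepwise pattern with log2 fold changes of 1.92 ± 0.15 for high-melanin over low-melanin necromass and 2.00 ± 0.16 for low-melanin necromass over glucose (adjusted p = 5.81e-06). GLOTRDRAFT_50702 differed from the other 5. It had 126, 189 and 121 TPM on high-melanin necromass, 21.6, 44.3 and 36.6 TPM on low-melanin necromass and 20.02, 39.5 and 24.9 TPM on glucose, so its low-melanin and glucose libraries overlapped. Low-melanin necromass over glucose was 0.59 ± 0.30 (adjusted p = 0.123), which did not pass the threshold, and 0.90 without glucose replicate 2 (adjusted p = 0.0286), which did. The other 5 were called higher on low-melanin necromass than on glucose, with log2 fold changes from 2.00 for GLOTRDRAFT_37518 to 5.98 ± 0.72 for GLOTRDRAFT_107452 (adjusted p = 7.78e-05).

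Low-melanin necromass against glucose is the one comparison whose direction the conditions did not set. It asks whether transcripts that peak on melanin-rich necromass also stood above glucose on necromass with little melanin. Of 445 members tested, 327 (73.5%) were called higher on low-melanin necromass, where 28.0% of all 10728 transcripts tested were called higher, and 1 (0.225%) was called lower, where 27.6% of all were called lower. The other 117 were not called and 1 member, GLOTRDRAFT_132529 with 165 bases, had too few counts to test. The median log2 fold change was 1.09 over the members and 0.02 over all transcripts tested. At a called rise of at least 2-fold there were 234 members (52.6%; 14.7% of all), and at least 4-fold 109 members (24.5%; 5.22% of all). These shares are not independent of the choice of members, because the low-melanin and glucose libraries both entered it. Members also had to exceed glucose on high-melanin necromass, and other transcripts meeting that limit were not set beside them. The shares of all transcripts are therefore no baseline for such a choice.

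The high-melanin comparisons served the choice itself, and nothing is read from their counts. On high-melanin necromass 443 members (99.6%) were called higher than on glucose, with 29.6% of all transcripts called. Over low-melanin necromass 143 members (32.1%) were called higher, with 2.06% of all called. The median log2 fold change of high-melanin over low-melanin necromass was 0.64 for members and 0.01 for all transcripts tested, so that most members met the TPM limit without a call by the count test. The 143 became 66 without high-melanin replicate 1, and 88, 74 and 68 without low-melanin replicates 1, 2 and 3. The share of all transcripts called in either direction fell as well, from 6.71% to 2.97%, 4.64%, 4.16% and 4.61%.

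**Figure D2:**
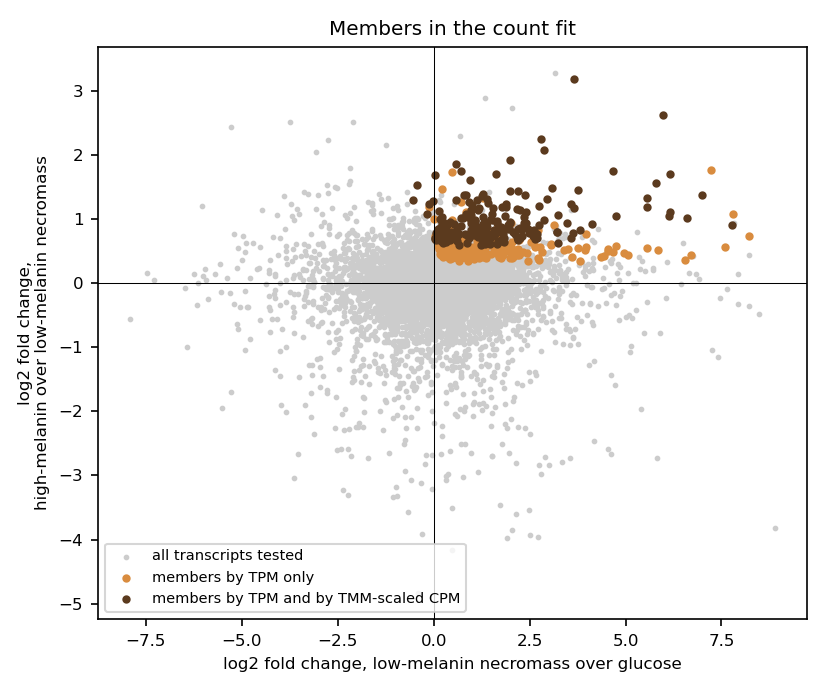
Log2 fold changes from the count fit, with low-melanin necromass over glucose on the horizontal axis and high-melanin over low-melanin necromass on the vertical axis, which share the low-melanin libraries. Grey points are all transcripts tested, orange points the members chosen by TPM alone and brown points the 194 members chosen on both scales. The brown points lie higher on the vertical axis by their choice, which set a limit on the same ratio in TMM-scaled CPM.

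The 327 members higher on low-melanin necromass than on glucose are named the stepwise class here. The upper step, between the necromass groups, was set by the choice of members in TPM. In the count test that step reached a call for 121 of the 327, so for most of the class it rests on the choice. In TMM-scaled CPM 152 of the class met the conditions as well. The medians of the class, taken for each carbon source separately, were 60.1 TPM on high-melanin necromass, 32.1 TPM on low-melanin necromass and 11.3 TPM on glucose. Of its members, 29 rose by 16-fold or more. Summed over the class, TPM was 123284, 109591 and 158161 in the high-melanin libraries, 48043, 72797 and 71629 in the low-melanin libraries and 10206, 11346 and 10801 in the glucose libraries. The class thus held most of the members' RNA in every library. Its highest fold changes belonged to GLOTRDRAFT_127955, GLOTRDRAFT_127957, GLOTRDRAFT_63180 and GLOTRDRAFT_138715, described earlier, and to GLOTRDRAFT_131211. The last of these, 222 bases long, had 20.8, 26.2 and 55.3 TPM on high-melanin necromass, 6.97, 5.92 and 13.0 TPM on low-melanin necromass and 0 TPM in every glucose library. It was the one member with no count in any glucose library (adjusted p = 0.00266 for low-melanin necromass over glucose). Taking 3 counts over the glucose group as the limit that a count of 0 allows, it was at least 63.9-fold higher on high-melanin necromass and at least 17.9-fold higher on low-melanin necromass. It shares reads with similar transcripts, and its counts summed to only 215 and 51.9 in the high-melanin and low-melanin groups.

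The 117 members not called between low-melanin necromass and glucose were less abundant and shorter. Their medians, again taken separately, were 31.2 TPM on high-melanin necromass, 16.9 TPM on low-melanin necromass and 17.1 TPM on glucose. The median length was 729 bases against 1083 bases in the stepwise class. Their summed TPM was 10982, 10366 and 13518 in the high-melanin libraries, 4584, 6487 and 6772 in the low-melanin libraries and 5355, 6284 and 6117 in the glucose libraries, so the low-melanin and glucose sums overlapped. Fold changes ran from -0.53 to 1.34 on the log2 scale, with a median of 0.35. A missed threshold does not show that the pair of carbon sources gave the same level. On both scales 41 of these members met the conditions.

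Several of these 41 are named here after their values were seen, as those that stood highest over the larger of the other means. GLOTRDRAFT_130934 had 80.7, 102 and 156 TPM on high-melanin necromass, 24.5, 30.3 and 40.8 TPM on low-melanin necromass and 23.9, 36.8 and 49.2 TPM on glucose. The low-melanin and glucose libraries were interleaved, and their log2 fold change was 0.04 ± 0.33 (adjusted p = 0.925). GLOTRDRAFT_38618 had 28.1, 18.2 and 29.9 TPM on high-melanin necromass, 5.64, 7.46 and 6.70 TPM on low-melanin necromass and 4.24, 4.03 and 6.62 TPM on glucose. Here the low-melanin libraries overlapped the glucose libraries at a single value, with a log2 fold change of 0.71 ± 0.30 (adjusted p = 0.0665). It was called without glucose replicate 3 (adjusted p = 0.0314) and without high-melanin replicate 2 or 3 (adjusted p = 0.0438 and 0.0369). GLOTRDRAFT_25998 was more abundant than GLOTRDRAFT_130934 and GLOTRDRAFT_38618, with 659.9, 716 and 1402 TPM on high-melanin necromass, 81.7, 478 and 395 TPM on low-melanin necromass and 180.0, 167 and 118 TPM on glucose. Low-melanin replicate 1 lay under all 3 glucose libraries while replicates 2 and 3 lay above them (log2 fold change 1.29 ± 0.53, adjusted p = 0.0613). It was called without low-melanin replicate 1 (adjusted p = 0.00674) and without high-melanin replicate 3 (adjusted p = 0.0435).

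**Figure D3:**
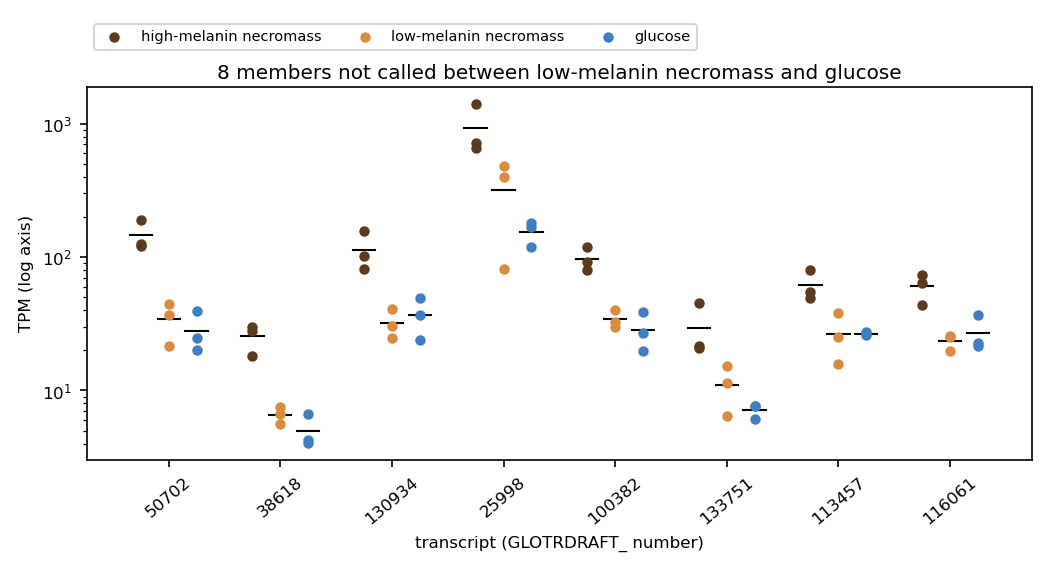
TPM (log axis) in each library for 8 members not called between low-melanin necromass and glucose that met the conditions on both scales, with points for libraries and short lines for group means. High-melanin points lie above the rest for each transcript, as the conditions required. The ranges of low-melanin and glucose points overlap for all 8, and for GLOTRDRAFT_25998 low-melanin points lie both below and above all glucose points.

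One member was called lower on low-melanin necromass than on glucose. GLOTRDRAFT_106780 had 24.2, 25.7 and 21.6 TPM on high-melanin necromass, 5.46, 6.97 and 9.28 TPM on low-melanin necromass and 11.7, 12.4 and 10.6 TPM on glucose. All low-melanin values lay under all glucose values, and all high-melanin values lay above both, as the conditions required. The log2 fold change of low-melanin necromass over glucose was -0.43 ± 0.13 (adjusted p = 0.0194), while high-melanin necromass exceeded low-melanin necromass by 1.52 ± 0.13 and glucose by 1.09 ± 0.13. The call was lost without low-melanin replicate 1 (adjusted p = 0.0706), without low-melanin replicate 2 (adjusted p = 0.0547) and without glucose replicate 1 (adjusted p = 0.0589).

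**Figure D4:**
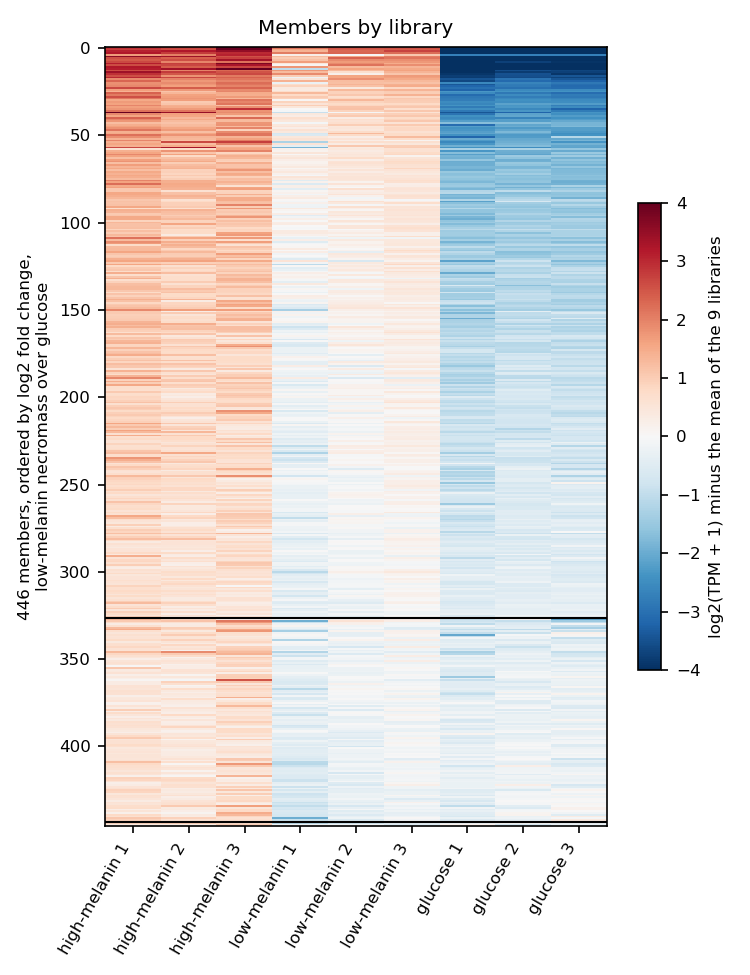
Each of the 446 members as a row and each library as a column, with log2(TPM + 1) shown as the difference from the mean of the 9 libraries and colours ending at 4 either way. Black lines divide the 327 members called higher on low-melanin necromass than on glucose (top), the 117 not called and the last 2 rows. Low-melanin columns are close to high-melanin ones in the first rows and become intermediate further down. Below the first line they are as pale or blue as glucose.

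High-melanin replicate 3 differed from its group in the members as well. In TMM-scaled CPM it was the highest of the 3 high-melanin libraries for 313 of the 446 members, against 95 for replicate 1 and 38 for replicate 2. In TPM it was highest for 198 members, against 204 for replicate 1 and 44 for replicate 2. Of the other transcripts at the same minimum level, 17.2% were highest in replicate 3 in TPM, 49.3% in replicate 1 and 33.5% in replicate 2. The ratio of replicate 3 to the mean of replicates 1 and 2 had a median of 1.29 over members and 0.997 over other transcripts in TMM-scaled CPM, and of 1.03 over members and 0.793 over other transcripts in TPM. In TPM the ratio ran from 0.27 for GLOTRDRAFT_131887 to 6.19 for GLOTRDRAFT_140585. GLOTRDRAFT_140585 had 9.94, 8.76 and 57.9 TPM on high-melanin necromass, 6.25, 8.75 and 6.75 TPM on low-melanin necromass and 4.44, 7.02 and 7.99 TPM on glucose. Its place among the members rests on replicate 3, and its log2 fold change of high-melanin over low-melanin necromass was 1.74 ± 0.73 with that library and 0.02 without it. Chosen without replicate 3, 366 of the 446 members remained and 80 did not, 78 of which were highest in replicate 3. Median fragment lengths implied by the deposited effective lengths were 270.1, 264.6 and 249.9 bases in the high-melanin libraries, 246.0, 262.5 and 265.0 bases in the low-melanin libraries and 317.9, 265.2 and 269.0 bases in the glucose libraries. Their part in these differences was not tested.

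**Figure D5:**
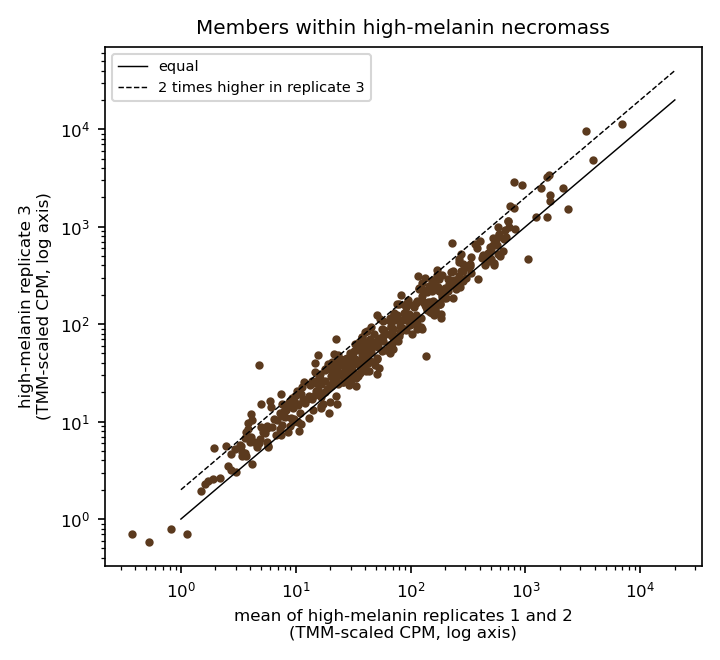
TMM-scaled CPM of each member in high-melanin replicate 3 against the mean of replicates 1 and 2 (both log axes), with a solid line for equal values and a dashed line for 2 times higher in replicate 3. More members lie above the solid line than below it, and 43 of the 446 lie on or above the dashed line. Of the other transcripts at the same minimum level, not shown, 2.32% reached that ratio.

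Along the gene table, members lay next to each other more often than other genes lay next to a member. Of the 446 members 106 (23.8%) had another member as a direct neighbour, against 751 of 11437 other genes (6.6%), and within 2 genes the shares were 30.3% and 12.6%. These are counts, with no test. Allowing 1 other gene between members, 135 members fell into 61 runs, 10 of which held 3 or more members, and the longest held 4. Of the 56 directly adjacent pairs, 34 had both members called higher on low-melanin necromass than on glucose, 5 had both not called and 17 were mixed. Of all 446 members 73.3% were called higher and 26.2% not called, so the pair counts alone do not show that neighbours were alike. In no directly adjacent pair did both members share reads with similar transcripts. Both GLOTRDRAFT_127955 and GLOTRDRAFT_127957, parted by 1 other gene, do share reads, and whether with each other is not known.

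There were 3 runs of 4 members. In the first, which spanned 5 genes, GLOTRDRAFT_135315 had 71.3, 41.6 and 77.7 TPM on high-melanin necromass, 24.9, 22.0 and 18.8 TPM on low-melanin necromass and 2.83, 3.55 and 4.12 TPM on glucose. GLOTRDRAFT_124422 was similar, with 35.2, 24.3 and 38.7 TPM on high-melanin necromass, 14.7, 18.3 and 16.8 TPM on low-melanin necromass and 3.30, 4.27 and 3.14 TPM on glucose. In both, all low-melanin libraries lay above all glucose libraries, with low-melanin necromass over glucose at 2.95 ± 0.33 (adjusted p = 5.22e-05) and 2.47 ± 0.24 (adjusted p = 1.84e-05) on the log2 scale. The other members of this run had smaller changes from glucose, 1.11 ± 0.18 (adjusted p = 0.000483) for GLOTRDRAFT_53059 and 0.47 ± 0.30 (adjusted p = 0.211) for GLOTRDRAFT_109082. These 2 genes overlap in the table, and since strand is not given, their reads cannot be told apart with certainty. Neither shared reads with similar transcripts by the measure used here.

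In the second run, 4 adjacent genes, GLOTRDRAFT_42001 with 192 bases had 1305, 1357 and 1271 TPM on high-melanin necromass, 648, 279 and 483 TPM on low-melanin necromass and 99.2, 245 and 127.97 TPM on glucose. GLOTRDRAFT_41750 had 559.6, 320.2 and 345 TPM on high-melanin necromass, 219, 230.0 and 299 TPM on low-melanin necromass and 148, 169 and 179 TPM on glucose. Both were called higher on low-melanin necromass than on glucose, by 1.89 ± 0.40 (adjusted p = 0.00288) and 0.87 ± 0.17 (adjusted p = 0.00184). Their neighbours GLOTRDRAFT_129378 and GLOTRDRAFT_93635 were far less abundant, at 21.1, 16.1 and 22.4 TPM and at 13.2, 10.6 and 12.3 TPM on high-melanin necromass, and were not called between low-melanin necromass and glucose (adjusted p = 0.161 and 0.0807).

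In the remaining run of 4, whose members are named here after their values were seen, all 4 were called higher on low-melanin necromass than on glucose. GLOTRDRAFT_82308 had 1243, 1073 and 599.8 TPM on high-melanin necromass, 246, 296 and 417 TPM on low-melanin necromass and 1.22, 3.20 and 4.42 TPM on glucose. GLOTRDRAFT_82303 had 106, 90.2 and 85.3 TPM on high-melanin necromass, 21.6, 21.7 and 29.2 TPM on low-melanin necromass and 1.18, 1.17 and 1.04 TPM on glucose. In each, all low-melanin libraries lay above all glucose libraries, with low-melanin necromass over glucose at 7.00 ± 0.45 (adjusted p = 1.22e-06) for GLOTRDRAFT_82308 and 4.66 ± 0.14 (adjusted p = 3.21e-08) for GLOTRDRAFT_82303. The same comparison gave 0.72 ± 0.11 (adjusted p = 0.000372) for GLOTRDRAFT_141492, which shares reads with similar transcripts, and 1.04 ± 0.39 (adjusted p = 0.0438) for the low-abundance GLOTRDRAFT_133925, which averaged 6.05 TPM on high-melanin necromass, 2.90 TPM on low-melanin necromass and 1.68 TPM on glucose. The call of GLOTRDRAFT_133925 was lost without any one of the 3 low-melanin libraries, without glucose replicate 1 and without glucose replicate 2, with adjusted p from 0.053 to 0.136.

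Some of the most abundant members had member neighbours, named here after their values were seen. GLOTRDRAFT_127955, GLOTRDRAFT_127957 and GLOTRDRAFT_127958 lay within 4 genes, the fourth being no member. GLOTRDRAFT_138715 lay between GLOTRDRAFT_93553, with 241, 117 and 132 TPM on high-melanin necromass, 116, 88.7 and 91.8 TPM on low-melanin necromass and 7.24, 5.52 and 4.74 TPM on glucose, and GLOTRDRAFT_93555, which averaged 6.81 TPM on high-melanin necromass, 2.70 TPM on low-melanin necromass and 0.684 TPM on glucose. GLOTRDRAFT_129266, no member, separated GLOTRDRAFT_93553 from GLOTRDRAFT_138715. It averaged 3.40 TPM on high-melanin necromass, 3.10 TPM on low-melanin necromass and 3.55 TPM on glucose. Levels in such a neighbourhood thus spanned more than 3 orders of magnitude on high-melanin necromass. GLOTRDRAFT_63180 shared a run with GLOTRDRAFT_130934, the member whose low-melanin and glucose libraries were interleaved.

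Over the 9 libraries, the members most like GLOTRDRAFT_127955 by Pearson correlation of log2(TPM + 1) were GLOTRDRAFT_127957 (0.998), GLOTRDRAFT_138715 (0.997) and GLOTRDRAFT_63180 (0.996). The points of these correlations fall into necromass and glucose clusters, so the values mostly restate the step between them. For GLOTRDRAFT_127957, reads shared with similar transcripts may also enter the value.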

How the data were processed

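Per the labels' protocols, TRIzol and a PureLink kit served for RNA extraction and a NEBNext Ultra II kit for library preparation. The authors deposited, per library, estimated counts, TPM, transcript lengths and effective lengths, made with kallisto 0.51.1 per the submitters' processing notes, which also name DESeq2 1.48.2. Estimated counts are divided by kallisto between similar transcripts. Strand, genome build and transcript set are not given in the sources used here, so no coordinates are printed. No sequences or product names were used here.

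The members and lists were chosen with earlier results of these data known. The deposited TPM values chose the members. Estimated counts were rounded to whole numbers, filtered with filterByExpr (10728 transcripts kept, holding 99.9875% or more of every library's counts), scaled with TMM and fitted over all 9 libraries with edgeR 4.0.16 (glmQLFit and glmQLFTest, robust) in R 4.3.3, with carbon source as the only term. Calls required a p-value, adjusted by Benjamini-Hochberg over all transcripts tested, below 0.05. The standard error (SE) of a log2 fold change is its size over the square root of F. TMM-scaled CPM were computed from the estimated counts. A transcript shares reads where an estimated count in at least 1 library lay over 0.01 away from a whole number. As a check of the code, the fit was also run on counts simulated from its own estimates of spread. That run does not test how the fit handles deviating libraries.

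Named members are the 8 with the highest high-melanin mean, the 6 with the highest ratio, the 5 with the largest called rise (and fall) on low-melanin necromass over glucose, those of the longest runs up to 8 members, and those nearest each limit; others are marked where they appear. All 11880 identifiers matched the Glotr1_1 table of 11883 genes, 127 of them as tRNA-type tags, none a member. The table names no scaffolds, so 258 borders were set where start positions fell. No pair of libraries agreed within sampling noise (lowest chi-square per degree of freedom 31.1), so all 9 were used. The floor of 3 counts covers counting error only. Alternatives used DESeq2 1.42.0, other scalings, no filter, 6 libraries, a replicate block, each library left out and, chosen after seeing the data, fragment length as a covariate. Python 3.11.15, pandas 2.3.3 and matplotlib 3.10.9 were used.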

Additional observations from a re-analysis of the deposited data

How the results depend on the processing

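The count of members called higher on low-melanin necromass than on glucose was 327, and 277 to 342 over all alternatives, lowest with fragment length as a covariate. Of all transcripts tested, 55.6% were called in either direction in the main fit. That share was 46.7% with fragment length as a covariate and 61.6% without high-melanin replicate 3, the alternative with 342. The 1 member called lower became 0 with fragment length as a covariate, 2 with the 6 libraries alone, and 0 to 2 with single libraries left out, with 0 without low-melanin replicate 1, low-melanin replicate 2 or glucose replicate 1 and 2 without high-melanin replicate 2 or 3. The 143 members called higher on high-melanin necromass over low-melanin necromass became 247 with DESeq2, 227 with library size alone, 81 with the 6 libraries alone and 91 with a replicate block, and 66 (without high-melanin replicate 1) to 151 with single libraries left out. The share of all transcripts called in either direction moved too, from 6.71% in the main fit. It was 11.4%, 7.9%, 4.12% and 4.78% in the first 4 of these alternatives and 2.97% without high-melanin replicate 1. The 443 called higher over glucose became 413 to 444, lowest with fragment length as a covariate. Of all transcripts tested 59.0% were called in either direction in the main fit and 52.3% with that covariate. The 446 members became 214 in TMM-scaled CPM, 116 at 2 times, 484 with 0.1 TPM added, 417 at a level of 11, and 346 (without low-melanin replicate 1) to 734 (without low-melanin replicate 3) with single libraries left out. Of the 135 members in runs, 106 remained with no gap and 160 were reached with a gap of 2 genes.

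Leaving aside members named after their values were seen, low-melanin necromass against glucose kept its direction except for 2 near the limits of the choice. Neither was called under any alternative: GLOTRDRAFT_140585 ran from -0.37 to 0.64 and GLOTRDRAFT_50916 from -0.51 to 0.29 on the log2 scale. GLOTRDRAFT_130934, named after its values were seen, also changed direction and was not called under any alternative. It ran from -0.36 with fragment length as a covariate to 0.28 without glucose replicate 3. The call of GLOTRDRAFT_106780 was lost with fragment length as a covariate (adjusted p = 0.0795) and without 3 single libraries, and GLOTRDRAFT_50702 was called with a replicate block (0.61, adjusted p = 0.0087) and without glucose replicate 2 (0.90, adjusted p = 0.0286). Of members named after their values were seen, GLOTRDRAFT_133925 lost its call with fragment length as a covariate (adjusted p = 0.235), and GLOTRDRAFT_38618 was called by DESeq2 (adjusted p = 0.044) and with the 6 libraries alone (adjusted p = 0.0372). Across transcripts, correlations of deviations between same-numbered low-melanin and glucose libraries were -0.128, -0.032 and -0.014, with no sign of pairing by replicate number. Same-numbered high-melanin and low-melanin libraries gave -0.133, 0.019 and -0.516, and high-melanin and glucose libraries 0.08, -0.141 and -0.049. Other-numbered libraries reached 0.456, for high-melanin replicate 1 with low-melanin replicate 3. Pairing in single transcripts was not tested. The replicate block called 319 members higher on low-melanin necromass than on glucose, 315 of them among the 327. With library size alone, the median log2 fold change of all transcripts was 0.10 in place of 0.01 for high-melanin over low-melanin necromass, and 0.13 in place of 0.03 for high-melanin necromass over glucose. At 18050313 to 25342327 counts a library, 1 member was too low to test. The causes were not tested.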
